A study of Mus musculus with 23 samples.

Results

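The genes described here encode the nuclear part of the mitochondrial machinery of oxidative phosphorylation. They were chosen by name: symbols starting with Nduf, Uqcr, Cox4 to Cox8 or Atp5, together with Sdha, Sdhb, Sdhc, Sdhd and Cyc1, without pseudogenes. The arrays measured 90 of them among 19938 genes. The names alone decided the choice, which was made with earlier results of these data known. For 17 members with several transcript clusters, the cluster with the highest mean signal was used. Of 97 genes in the RefSeq annotation that carry such names, 7 had no transcript cluster naming a single gene and were not analysed here. The mitochondrially encoded subunits were also not analysed here.

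The study grew tumours from Py2T, a murine breast cancer cell line, in the mammary fat pad of female FVB/N mice and treated them with nintedanib, which blocks receptor tyrosine kinases of angiogenic growth factors such as VEGF. The dose was 50 mg per kg of body weight. Tumour cells and endothelial cells were sorted from the tumours. For tumour cells there were 3 arrays from untreated mice, 4 from mice treated for 7 days and 5 from mice treated for 21 days. For endothelial cells the numbers were 3, 3 and 5. Treatment started once tumours could be measured, and the controls were chosen to equal the 21-day tumours in size, so the 7-day tumours have no control of their own. All tumours came from this single line. Values are log2 signals of Affymetrix arrays after robust multi-array averaging (RMA), and a difference of 1 on this scale is a 2-fold change.

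In background terms, complexes I, III and IV pass electrons from NADH to oxygen and pump protons, complex II feeds in electrons from succinate, and complex V (ATP synthase) lets protons return through its membrane-embedded ring while its catalytic head makes ATP. Tumours rely on this machinery and on glycolysis to varying degrees, and endothelial cells are known to obtain much of their ATP from glycolysis. Several subunits have isoforms specific to a tissue or to low oxygen. By role, the 90 genes were 6 core subunits, 28 supernumerary subunits and 7 assembly factors of complex I, the 4 subunits of complex II, 9 subunits of complex III, 10 general subunits of complex IV with 9 further genes that are mostly its tissue isoforms, and 5 genes of the catalytic F1 head and 12 of the membrane part and stalks of complex V.

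The labelled cell types were checked with markers. The mean of 10 endothelial markers lay between 10.15 and 10.76 in the 11 endothelial arrays and between 3.87 and 4.27 in the 12 tumour arrays. The mean of 8 epithelial markers lay between 6.33 and 6.93 in tumour arrays and between 5.29 and 6.46 in 10 endothelial arrays; it was 7.89 in 21-day endothelial replicate 4. The mean of 12 macrophage markers was 7.88 in untreated endothelial replicate 1, 7.75 in 21-day replicate 3 and 7.13 in 21-day replicate 4, against 4.44 to 6.19 in the other 8 endothelial arrays and 4.07 to 5.16 in tumour arrays. The mean of 13 fibroblast and pericyte markers lay between 6.46 and 7.24 in endothelial arrays and between 5.97 and 6.38 in tumour arrays, without overlap. The mean of 11 genes induced by cell isolation lay between 9.77 and 10.17 in 7-day tumour arrays, 9.23 and 9.94 in 21-day arrays and 8.88 and 9.37 in untreated arrays. In endothelial arrays it lay between 8.13 and 8.59 without treatment and between 8.98 and 9.69 with it. This signal separated treated from untreated endothelial arrays, and 7-day from untreated tumour arrays, without overlap, so in these comparisons the treatment and this signal cannot be told apart. Macrophage means also did not overlap between 7-day (4.44 to 5.09) and untreated endothelial arrays (5.63 to 7.88). Epithelial means did not overlap between 7-day (6.81 to 6.93) and untreated tumour arrays (6.38 to 6.64). The treatment and these marker signals cannot be told apart in those comparisons. In sorted bulk samples, fewer cells of a type and less RNA per cell cannot be told apart either.

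All but 3 of the 90 genes (Cox7b2, Cox8b and Cox8c) had a mean level above the 30th percentile of all genes. The members differed little among tumour arrays and widely among endothelial arrays. Averaged over all 90 genes, the log2 signal was 8.85 ± 0.13 (SD, n = 3) in untreated, 8.84 ± 0.03 (n = 4) in 7-day and 8.94 ± 0.04 (n = 5) in 21-day tumour cells. In endothelial cells it was 8.55 ± 0.06 (n = 3), 8.50 ± 0.43 (n = 3) and 8.61 ± 0.23 (n = 5). The median residual SD of the members within groups was 0.161 in tumour cells, beside 0.156 over all genes, and 0.485 in endothelial cells, beside 0.255 over all genes. The most variable members in endothelial cells were Ndufa4l2 (residual SD 1.27), Ndufa1 (0.975) and Ndufc2 (0.959). In tumour cells the most variable was Ndufaf6 (0.489).

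**Figure D1:**
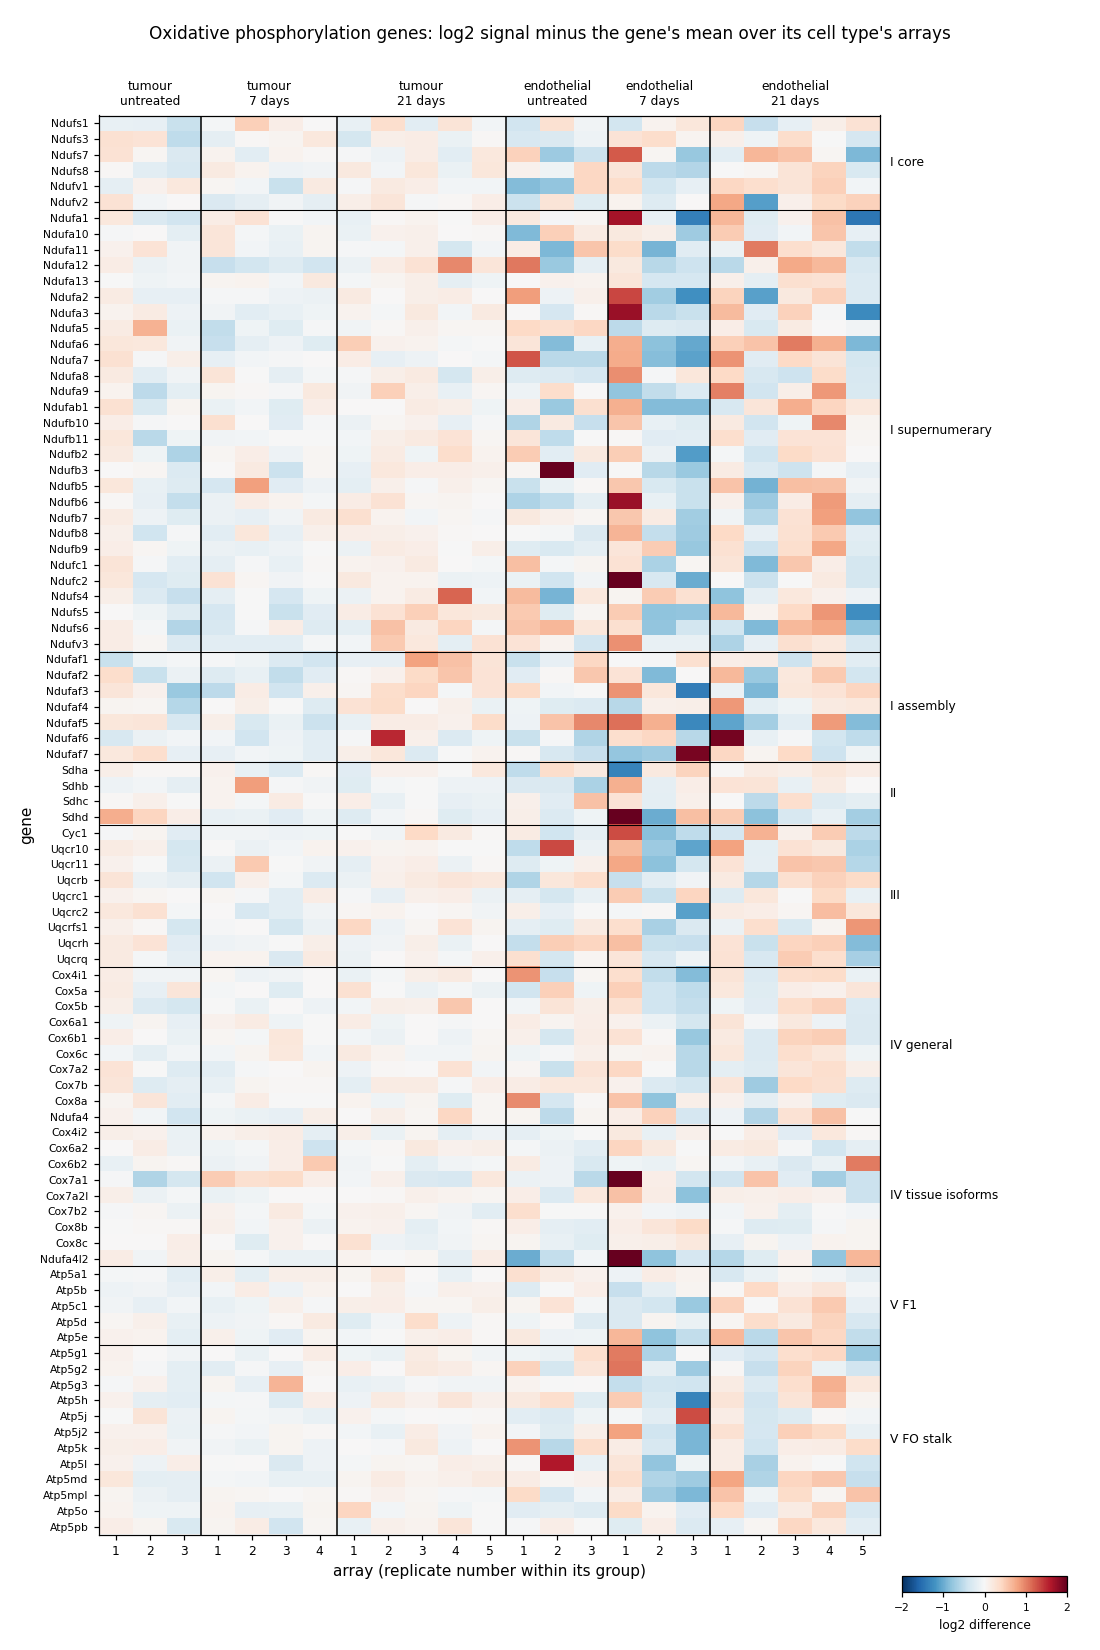
Heat map of the 90 oxidative phosphorylation genes (rows, ordered by complex) in the 23 arrays (columns, replicate numbers within each group). Colour gives the log2 signal minus the gene's mean over the arrays of the same cell type, with the scale ending at 2 in either direction. Tumour columns are pale, and 7-day endothelial replicate 1 is the column with the most strong red cells (26 of the 90 genes, 28.9%, were highest there among the 11 endothelial arrays, beside 18% of all genes).

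Endothelial replicate 1 of the 7-day group stood apart from its group. For the members, its value exceeded the mean of the other 7-day replicates by a median of 0.70, beside 0.02 over all genes. The excess was over 1 for 29 of 90 members (32.2%), beside 4.14% of all genes. Ndufc2, a small subunit of the membrane arm of complex I, was at 12.81 there and at 9.95 and 9.29 in replicates 2 and 3. Ndufa1, which is needed for the assembly of that arm, was at 11.11, 9.30 and 8.08. Cyc1, the cytochrome c1 of complex III, was at 9.85, 7.71 and 8.04. Replicate 1 was far above both others for all of these genes, so 7-day endothelial values that change by over 1.5 times without it are also given without it below. Its means of macrophage (4.44), pericyte and fibroblast (6.87) and epithelial markers (5.72) lay within or below the range of the other endothelial arrays. Its means of adipocyte (4.10) and skeletal muscle markers (4.94) were the highest of all 23 arrays, over ranges that began at 3.58 and 4.60. The part of any of these in the result was not tested. At the other end, 7-day replicate 3 had the lowest endothelial value for 29 members (32.2%), beside 8.47% of all genes. In 21-day replicate 4, 19 members (21.1%) had their highest endothelial value, beside 7.51% of all genes. That array also had high means of epithelial (7.89) and macrophage markers (7.13), and their part in its values was not tested. Single high values also occurred elsewhere: in untreated endothelial replicate 2, Atp5l was at 12.96 and Ndufb3 at 8.92, beside 11.38 and 11.21, and 6.74 and 6.48, in its group.

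**Figure D2:**
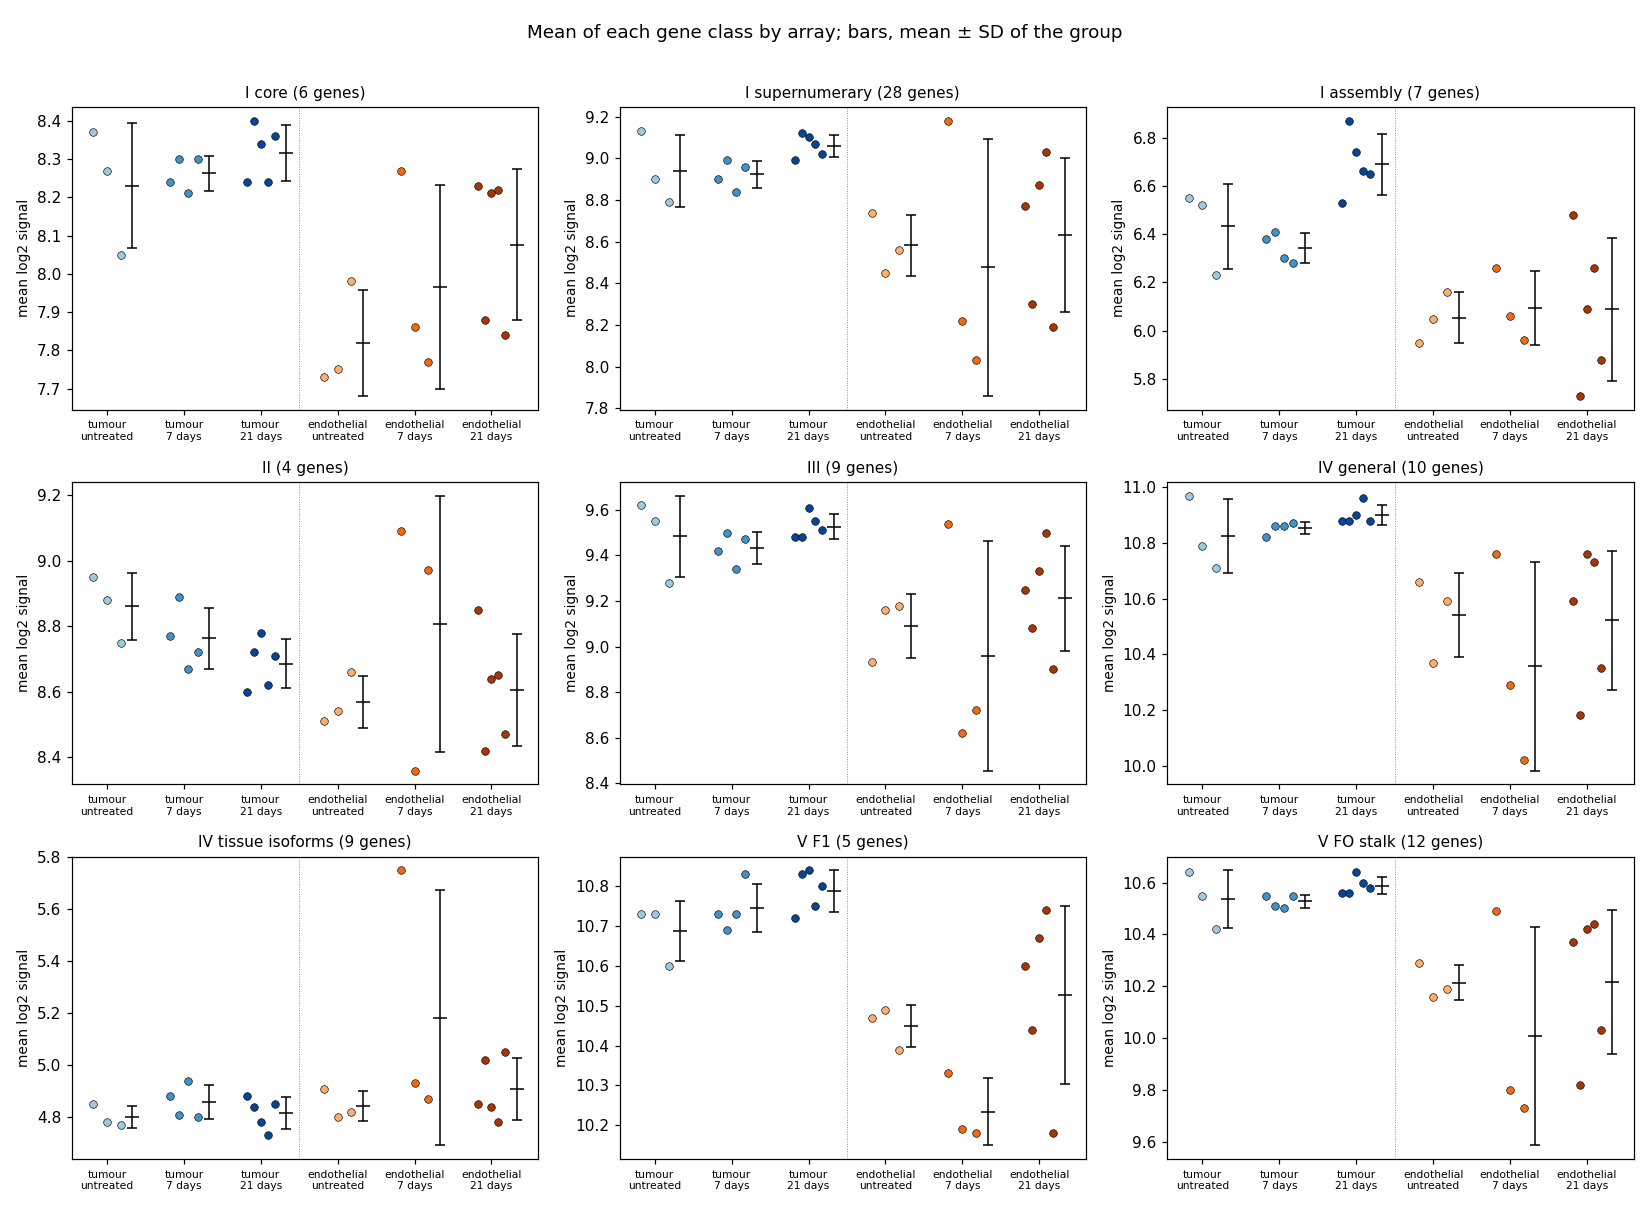
Mean log2 signal of each gene class (y axis) in every array, by group (x axis), with the mean and SD of each group as bars. Complex I assembly factors averaged 6.53 to 6.87 in 21-day tumour arrays and 6.28 to 6.41 in 7-day tumour arrays, and for most classes 7-day endothelial replicate 1 lies above replicates 2 and 3.

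To show the regulatory sequence next to these genes, promoters were taken from RefSeq (build GRCm38.p6), as the 250 bases before the annotated start, for the 73 members with an entry. Short motifs of factors known for respiratory genes were searched on both strands. The NRF1 letters, GCGCA and GCGC with any 1 base between them, are the core that this nuclear respiratory factor recognises; they were in 12 of 73 member promoters (16.4%), beside 5.84% of the 15614 promoters of measured genes and 3.86% of all 27025. With T alone as that base, which makes the letters a palindrome, they were in 5 (6.85%), beside 1.17% of measured genes. The ETS-factor motif CCGGAAG was also in 12 (16.4%), beside 9.63% and 7.05%, and the YY1 motif ATGGCGG was in 4 (5.48%), beside 2.66% and 2.19%. The ERR motif TCAAGGTCA was in 1 (1.37%), beside 0.288% and 0.366%, and the hypoxia response letters TACGTG were in 1 (1.37%), beside 2.76% and 2.68%. The shares depend on the window: with the 50 bases after the start added (300 in all), NRF1 letters were in 17 members, ETS in 17, YY1 in 10, ERR in 2 and TACGTG in 1. The NRF1 letters were first searched as the palindrome alone, the YY1 motif in a longer form that fewer members held, and all motifs in the 300-base window. The forms and window that lead here were set after those counts were seen, so these shares are a description. A match is a description of letters only.

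The following promoters are shown because Ndufs5 was the only member that passed a test between treatment groups, Uqcr11 was lower in endothelial than tumour cells in all 3 conditions, and Cox6a1 and Atp5g2 hold the palindromic form of the NRF1 letters. Each runs from 5′ to 3′ on the gene's strand (the minus strand for all 4) and ends just before the start, with motif matches in capitals.
Ndufs5: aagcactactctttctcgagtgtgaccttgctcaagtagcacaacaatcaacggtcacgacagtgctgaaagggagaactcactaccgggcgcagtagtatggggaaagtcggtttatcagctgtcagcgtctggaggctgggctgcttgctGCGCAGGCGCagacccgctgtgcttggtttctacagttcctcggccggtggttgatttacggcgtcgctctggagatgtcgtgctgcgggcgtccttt
Uqcr11: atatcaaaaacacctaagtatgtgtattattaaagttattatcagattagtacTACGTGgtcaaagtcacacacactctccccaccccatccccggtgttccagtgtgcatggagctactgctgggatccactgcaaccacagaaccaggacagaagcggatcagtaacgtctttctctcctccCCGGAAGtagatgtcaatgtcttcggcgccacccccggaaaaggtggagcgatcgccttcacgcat
Cox6a1: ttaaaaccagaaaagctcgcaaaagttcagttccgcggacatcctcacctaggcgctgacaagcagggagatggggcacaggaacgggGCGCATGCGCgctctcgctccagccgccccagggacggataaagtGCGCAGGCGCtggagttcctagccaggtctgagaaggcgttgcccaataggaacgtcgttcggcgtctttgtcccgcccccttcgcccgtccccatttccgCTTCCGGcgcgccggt
Atp5g2: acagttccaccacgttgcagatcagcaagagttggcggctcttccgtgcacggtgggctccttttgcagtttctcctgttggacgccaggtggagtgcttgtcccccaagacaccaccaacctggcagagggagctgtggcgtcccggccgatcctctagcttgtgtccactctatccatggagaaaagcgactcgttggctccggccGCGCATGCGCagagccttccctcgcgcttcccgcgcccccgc
Their positions are chr4:123718187-123718436, chr10:80406822-80407071, chr5:115348959-115349208 and chr15:102671048-102671297. Positions within each window are counted back from the start. In Ndufs5 the NRF1 letters lay at bases -98 to -89. In Uqcr11 the hypoxia response letters lay at -197 to -192 and the ETS motif at -66 to -60. In Cox6a1 the NRF1 letters lay at -162 to -153 and again at -117 to -108, and the ETS motif, on the opposite strand, at -16 to -10. In Atp5g2 the NRF1 letters lay at -42 to -33. Uqcr11 was 1 of 5 members that passed as lower in endothelial cells in all 3 conditions. Of the others, Ndufa12, Ndufab1 and Atp5d held none of the searched motifs in this window. Ndufb9 had no promoter entry.

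After 7 days of nintedanib, no member in tumour cells passed the test against untreated tumours (limma, Benjamini-Hochberg adjusted p under 0.05 over all 19938 genes; 0 of 90, with 7 at an unadjusted p under 0.05, beside 11% of all genes), where 0.507% of all genes passed. The median difference of the members was -0.007, beside -0.010 over all genes. Sdhd, a membrane anchor of complex II, had the smallest p. It was at 8.80, 8.50 and 8.21 in untreated, at 7.92, 7.94, 7.85 and 7.99 in 7-day and at 7.81, 8.01, 8.10, 7.83 and 7.90 in 21-day tumour arrays. All 9 treated arrays lay below the lowest untreated array. The difference was -0.582 ± 0.122 (SE; adjusted p = 0.0672) at 7 days and -0.577 ± 0.117 (adjusted p = 0.105) at 21 days, and both comparisons share the 3 untreated arrays. With the mean of the isolation genes as a covariate the 7-day difference was -0.602 ± 0.225 (adjusted p = 0.762). At 7 days the adjusted p was 0.0411 without untreated replicate 3 (difference -0.728) and 0.0332 after another quantile normalization.

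The other complex II subunits gave no such separation. Sdha, the flavoprotein that oxidizes succinate, ranged from 7.98 to 8.47 over the 12 tumour arrays, and Sdhc, the other anchor, from 9.43 to 9.76. Sdhb, the iron-sulphur subunit, lay between 8.85 and 9.17 in 11 arrays and at 9.93 in 7-day replicate 2. So Sdhd was the member of its complex whose untreated and treated tumour arrays did not overlap.

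Cox7a1, the isoform of a complex IV subunit best known from heart and skeletal muscle, had a difference of the opposite sign. Its values were 5.55, 4.97 and 5.23 in untreated, 6.09, 5.90, 5.95 and 5.71 in 7-day and 5.52, 5.68, 5.29, 5.25 and 5.78 in 21-day tumour arrays. The 7-day arrays lay above all untreated arrays, and the 21-day arrays overlapped both groups. The difference was 0.661 ± 0.160 (adjusted p = 0.109) at 7 days against untreated and -0.409 ± 0.140 (adjusted p = 0.236) at 21 against 7 days. With the isolation mean as a covariate the 7-day difference was 0.223 ± 0.247 (adjusted p = 0.950). The mean of 9 skeletal muscle markers lay between 4.63 and 4.72 in untreated, 4.67 and 4.86 in 7-day and 4.67 and 4.83 in 21-day tumour arrays, and its part in the Cox7a1 values was not tested.

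Other members at the head of the 7-day comparison did not pass either. Ndufs1, the largest core subunit of complex I, differed by 0.402 ± 0.159 (adjusted p = 0.355), and Ndufa1 by 0.249 ± 0.135 (adjusted p = 0.549). Uqcrc2, a core protein of complex III, differed by -0.307 ± 0.098 (adjusted p = 0.228), and Ndufa5, a subunit of the matrix arm of complex I, by -0.462 ± 0.166 (adjusted p = 0.295). The 7-day and untreated arrays did not overlap for 6 members: Cox7a1 and Ndufs1 were higher in every 7-day array (2.22% of members, beside 5.32% of all genes), and Sdhd, Ndufa6, Ndufa12 and Ndufv2 were lower (4.44%, beside 4.90%). Both shares are near or below those of all genes.

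At 21 days against untreated tumours, again 0 of 90 members passed (limma; 7 at an unadjusted p under 0.05, beside 10.1% of all genes), where 0.0903% of all genes passed. The members' differences had a median of 0.066, beside -0.011 over all genes, and 61 of 90 (67.8%) were positive, beside 46.8%. The 1994 genes in the top 10% by mean level, where most of these genes lie, had a median of 0.066 as well and 63.9% positive. The member median was 0.155 without untreated replicate 1, the untreated array with the highest mean over the members (8.99), and it ranged from 0.018 to 0.155 over the fits that left out an array. Untreated replicate 3, with a member mean of 8.72, had the lowest tumour value for 29 of 90 members (32.2%), beside 10.4% of all genes. The smallest p on the positive side belonged to Ndufs5 (0.383 ± 0.110, adjusted p = 0.249). Ndufb6, a small subunit of the membrane arm of complex I, differed by 0.308 ± 0.113 (adjusted p = 0.387) and Atp5c1, the rotating gamma subunit of complex V, by 0.178 ± 0.070 (adjusted p = 0.407). On the negative side, after Sdhd, Ndufa7 of complex I differed by -0.163 ± 0.091 (adjusted p = 0.579) and Uqcrc2 by -0.138 ± 0.093 (adjusted p = 0.653).

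Between 7 and 21 days, 1 of 90 members passed: Ndufs5, a small complex I subunit on the intermembrane-space side, rose (limma; 1.22% of all genes passed, 0.622% in the higher direction). Its values were 6.68, 7.01, 6.56 and 6.79 in 7-day and 7.16, 7.30, 7.49, 7.24 and 7.21 in 21-day tumour arrays. The 2 groups did not overlap, and untreated arrays, at 7.02, 6.93 and 6.75, lay below every 21-day array. The difference was 0.517 ± 0.101, or 1.43-fold, with an adjusted p of 0.0308. The adjusted p was over 0.05 when any of 6 arrays was left out: 0.0997, 0.0960 and 0.0795 without 7-day replicates 1, 3 and 4, and 0.0753, 0.0710 and 0.0597 without 21-day replicates 2, 3 and 4. With the mean of the isolation genes as a covariate the difference was 0.428 ± 0.129 (adjusted p = 0.332).

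More members than genes at large had separated groups in this comparison. The 21-day arrays lay above all 7-day arrays for 10 of 90 members (11.1%), beside 2.94% of all genes, and below them for 0, beside 2.40%. The median difference of the members was 0.077, beside -0.002 over all genes and 0.001 over the top 10% by level. Besides Ndufs5, these were Ndufa2, Ndufa3, Ndufa6, Ndufa12 and Ndufv2 of complex I, the assembly factor Ndufaf2, Cyc1, Cox7a2l, which joins respiratory complexes into supercomplexes, and Atp5md. None of these 9 passed the test. On the negative side, after Cox7a1, the smallest p belonged to Sdhb (-0.304 ± 0.155, adjusted p = 0.491), which was -0.094 without 7-day replicate 2, and to Atp5g3 (-0.237 ± 0.138, adjusted p = 0.581), which was -0.060 without 7-day replicate 3.

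Among them Ndufa12, a complex I subunit near the junction of the electron-input and quinone modules, showed the widest range. It was at 9.83, 9.56 and 9.61 in untreated, 9.22, 9.30, 9.41 and 9.29 in 7-day and 9.55, 9.82, 9.96, 10.64 and 9.91 in 21-day tumour arrays. The 7-day arrays lay below all others, and 21-day replicate 4 was highest. The difference between 21 and 7 days was 0.671 ± 0.170 (adjusted p = 0.0913), and that between 21 days and untreated was 0.308 ± 0.185 (adjusted p = 0.607). The adjusted p for 21 against 7 days was 0.0441 without 21-day replicate 1 and 0.0474 without 21-day replicate 4. Ndufaf2, the assembly factor that is a paralogue of Ndufa12, was at 7.86, 7.97, 7.63 and 7.90 at 7 days and 8.15, 8.21, 8.50, 8.68 and 8.39 at 21 days, a difference of 0.545 ± 0.154 (adjusted p = 0.131). Its untreated arrays, at 8.47, 7.67 and 8.0, spanned most of both ranges.

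The 7 complex I assembly factors, Ndufaf1 to Ndufaf7, all had positive differences between 21 and 7 days, from 0.158 (Ndufaf4) to 0.545 (Ndufaf2), with a median of 0.370. None of them passed the test. The difference was positive for 49.2% of all genes and 68.9% of the members. For Ndufaf6, 21-day replicate 2 was at 5.92, beside 4.15 to 4.52 in the other 21-day arrays and 4.03 to 4.37 at 7 days. Against untreated tumours 6 of 7 were positive at 21 days, with a median of 0.340, and Ndufaf7 was at -0.102. The mean signal of the 7 factors was 6.43 ± 0.18 (n = 3) in untreated, 6.34 ± 0.06 (n = 4) in 7-day and 6.69 ± 0.13 (n = 5) in 21-day tumour cells. Untreated replicate 1, at 6.55, overlapped the 21-day range. Of 39 assembly genes of the respiratory complexes outside the naming rule, none passed in any tumour comparison, and their median between 21 and 7 days was 0.062. Of 48 genes of the large mitochondrial ribosomal subunit, none passed, and 36 were positive with a median of 0.129.

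The other classes had smaller median differences between 21 and 7 days in tumour cells. The median difference was 0.113 over the 28 supernumerary subunits of complex I, 0.046 over its core subunits, -0.054 over complex II, 0.066 over complex III, 0.059 over the general complex IV subunits, -0.020 over its isoform genes, 0.042 over the F1 head and 0.087 over the rest of complex V. Cox4i1, the general isoform of complex IV subunit 4, ranged from 10.80 to 11.12 over all 12 tumour arrays, and its low-oxygen counterpart Cox4i2 from 4.11 to 4.46, with the groups overlapping for both. Ndufa4l2, a target of hypoxia-inducible factor (HIF) that is known to lower complex I activity, ranged from 3.59 to 3.91. Among 10 HIF targets that act on mitochondria, a list that includes Ndufa4l2 and Cox4i2, only Bnip3, a mitophagy receptor, passed in tumour cells. It rose by 2.24 ± 0.25 (adjusted p = 0.00811) at 21 days against untreated and by 1.37 ± 0.23 (adjusted p = 0.0163) against 7 days.

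**Figure D3:**
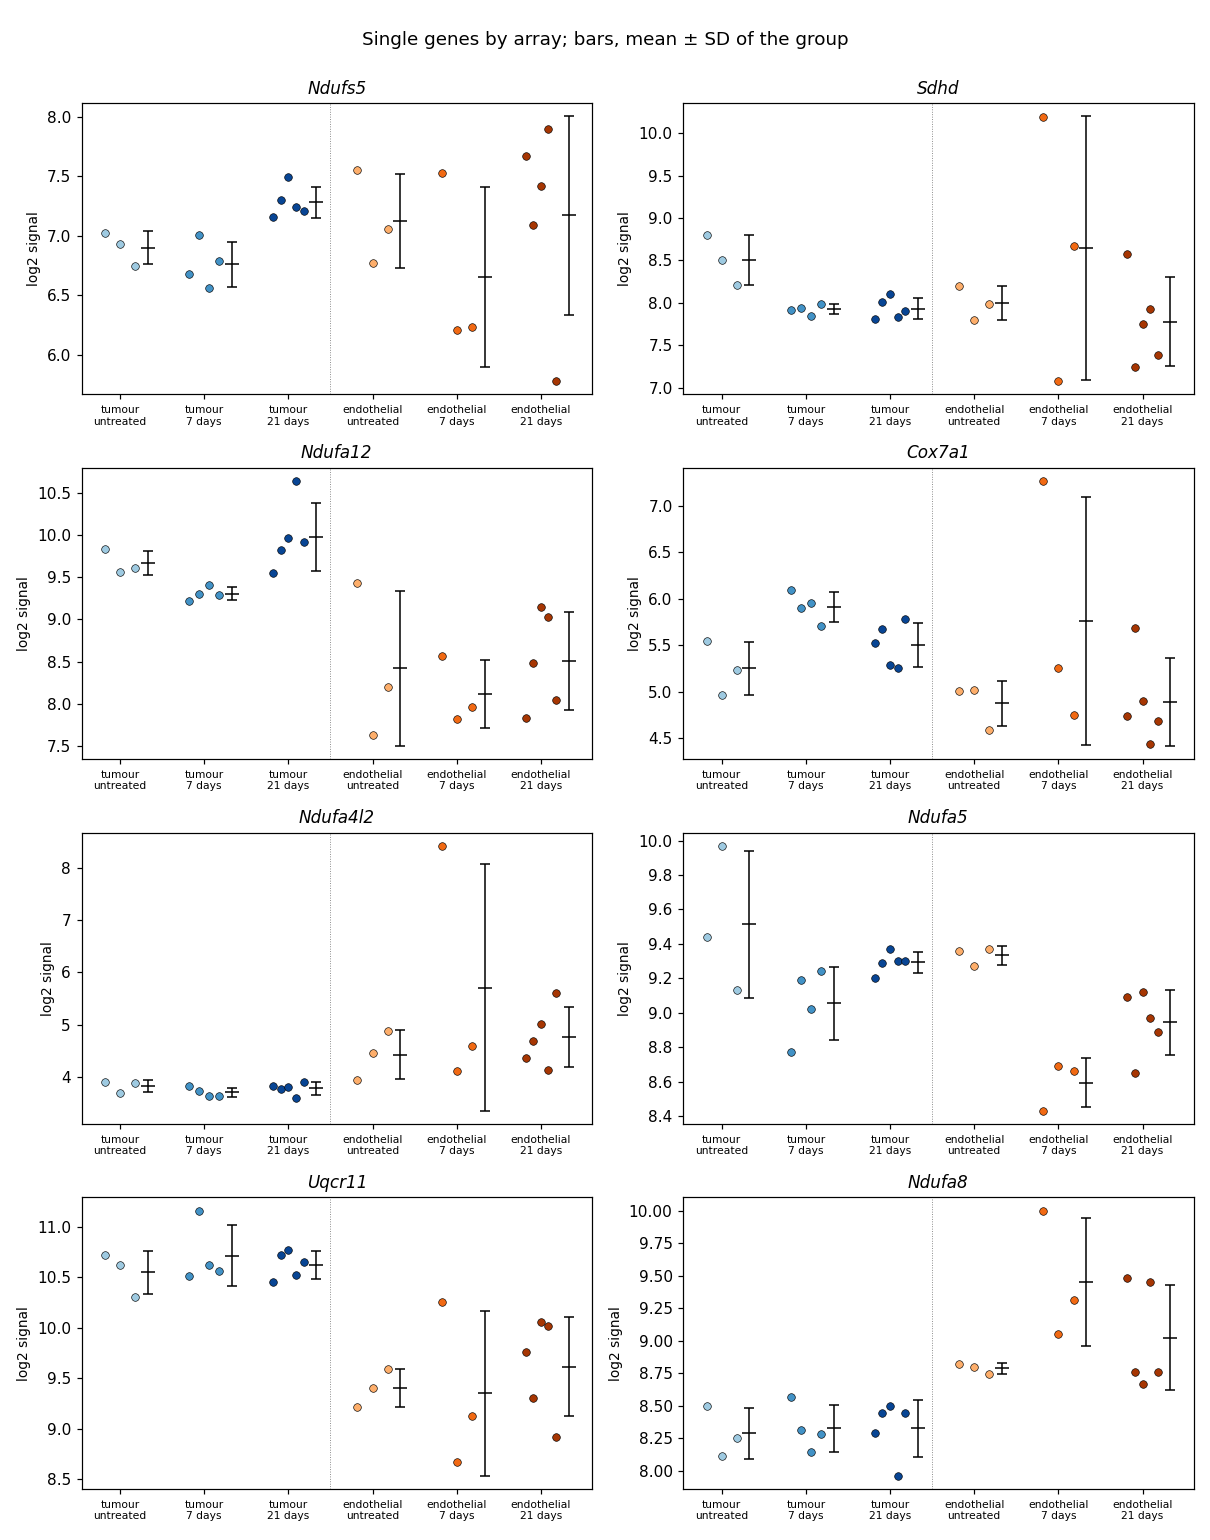
Log2 signal (y axis) of 8 members in every array, by group (x axis), with the mean and SD of each group as bars. Sdhd in treated tumour arrays lies below every untreated one, Ndufs5 at 21 days lies above every 7-day tumour array, and Ndufa4l2 and Cox7a1 have a single high array in 7-day endothelial cells.

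In endothelial cells, 0 of 90 members passed at 7 days against untreated, at 21 days against untreated or at 21 against 7 days (limma; 6, 4 and 8 members at an unadjusted p under 0.05, beside 8.17%, 4.18% and 9.40% of all genes), where 0% of all genes passed in each. The median standard error of the members was 0.360 at 7 days, beside 0.202 over all genes. For the members in tumour cells at 7 days it was 0.119. The quartiles of the member differences in tumour cells at 7 days, -0.096 and 0.094, were smaller in size than an error of 0.360. The part of this error in the lack of calls was not tested. Some members, such as Ndufa5 below, had smaller errors. The members' median difference was -0.107 at 7 days, beside 0.058 over all genes, and -0.359 without 7-day replicate 1. It was 0.090 at 21 days against untreated and 0.148 at 21 against 7 days, the latter 0.339 without that array. The top 10% of genes by level had medians of -0.100, 0.053 and 0.162.

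Ndufa5 had the smallest p of the members in endothelial cells. It was at 9.36, 9.27 and 9.37 in untreated, 8.43, 8.69 and 8.66 in 7-day and 9.09, 8.65, 9.12, 8.97 and 8.89 in 21-day arrays. Every treated array lay below every untreated array. The difference was -0.744 ± 0.138 (adjusted p = 0.278) at 7 days and -0.390 ± 0.123 (adjusted p = 1.000) at 21 days, which share the untreated arrays. In a single fit over all 23 arrays the 7-day adjusted p was 0.0450. That fit pools the spread of both cell types, and the residual SD of Ndufa5 was 0.239 in tumour and 0.152 in endothelial cells.

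In complex V, Atp5c1 and Atp5g3 were lowest at 7 days. Atp5c1, the rotating gamma subunit, was at 10.24, 10.46 and 10.14 in untreated, 9.90, 9.81 and 9.45 in 7-day and 10.65, 10.17, 10.48, 10.71 and 10.02 in 21-day endothelial arrays. The 7-day arrays lay below all 8 others, replicate 1 included. The difference was -0.562 ± 0.204 (adjusted p = 0.585) at 7 days and 0.689 ± 0.183 (adjusted p = 0.389) at 21 against 7 days. In a single fit over all 23 arrays the second had an adjusted p of 0.0180. That fit pools the spread of both cell types, and the residual SD of Atp5c1 was 0.075 in tumour and 0.258 in endothelial cells. Atp5g3, which encodes the proton-carrying ring, was at 10.15, 10.08 and 10.09, at 9.61, 9.72 and 9.68, and at 10.25, 9.81, 10.41, 10.80 and 10.30 in the same order. Its 7-day arrays were again the lowest, with a difference of -0.438 ± 0.202 (adjusted p = 0.620) at 7 days and 0.647 ± 0.181 (adjusted p = 0.399) at 21 against 7 days.

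Sdhb was the member with the smallest p among positive 7-day differences, at 8.48, 8.47 and 8.13 in untreated, 9.47, 8.58 and 8.90 in 7-day and 9.03, 9.02, 8.62, 8.93 and 8.77 in 21-day endothelial arrays. All treated arrays lay above all untreated ones. The differences were 0.621 ± 0.215 (adjusted p = 0.574) at 7 days, or 0.379 without 7-day replicate 1, and 0.513 ± 0.192 (adjusted p = 1.000) at 21 days. Ndufs3, a core subunit of complex I, differed by 0.466 ± 0.168 (adjusted p = 0.582) and Cox8b by 0.340 ± 0.136 (adjusted p = 0.595) at 7 days. Sdhd, which separated treated from untreated tumour cells, did not do so here: it was at 8.20, 7.80 and 7.99, then 10.19, 7.08 and 8.67, then 8.58, 7.25, 7.75, 7.93 and 7.39. Its 7-day difference was 0.647 ± 0.632 (adjusted p = 0.798), or -0.126 without 7-day replicate 1, and its 21-day difference was -0.221 ± 0.565 (adjusted p = 1.000).

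Across all members, 7-day and untreated endothelial arrays did not overlap for 6 in the higher direction (6.67%, beside 9.87% of all genes) and 5 in the lower (5.56%, beside 3.96%). The higher ones were Cox6a2, Cox8b, Cox8c, Ndufa8, Ndufs3 and Sdhb, and the lower ones Atp5c1, Atp5g3, Cox7b, Ndufa5 and Ndufa9. Cox8b and Cox8c had low signals, with mean levels at percentiles 21.0 and 24.1 of all genes. Ndufa4l2 was at 3.94, 4.46 and 4.88 in untreated, 8.42, 4.12 and 4.59 in 7-day and 4.36, 4.69, 5.02, 4.14 and 5.60 in 21-day endothelial arrays. A single 7-day array was high and the rest overlapped. The 7-day difference was 1.29 ± 0.92 (adjusted p = 0.744), and -0.071 without that array. Cox7a1 had the same shape, at 5.01, 5.02 and 4.59, then 7.27, 5.25 and 4.75, with a 7-day difference of 0.881 ± 0.552 (adjusted p = 0.719), and 0.124 without that array.

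At 21 days against untreated endothelial cells, the other members with the smallest p were Ndufv1, a core subunit of complex I (0.702 ± 0.287), and Ndufaf4 (0.399 ± 0.241) on the positive side. On the negative side they were Atp5a1 (-0.324 ± 0.112) and Ndufb3 (-0.820 ± 0.466), and all 4 had an adjusted p of 1.000. The Ndufb3 difference was -0.052 without untreated replicate 2. At 21 against 7 days Atp5mpl, a small complex V subunit, differed by 0.770 ± 0.267 (adjusted p = 0.458). Cox8b differed by -0.350 ± 0.122 (adjusted p = 0.458), Cox7a1 by -0.865 ± 0.494 (adjusted p = 0.607) and Ndufa8 by -0.431 ± 0.254 (adjusted p = 0.614). Without 7-day replicate 1 the Cox7a1 and Ndufa8 differences were -0.108 and -0.157. None of these passed the test.

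A test of whether the treatment difference itself differed between cell types found 0 of 90 members at 7 days (limma; 8 at an unadjusted p under 0.05, beside 11% of all genes), where 0.0953% of all genes passed, and 0 at 21 days (limma; 2 at an unadjusted p under 0.05, beside 5.33%), where 0% passed. For Sdhd the 7-day difference in endothelial cells exceeded that in tumour cells by 1.23 ± 0.64 (adjusted p = 0.490), and by 0.456 without 7-day endothelial replicate 1. The adjusted p was 0.0462 without 7-day endothelial replicate 2 (difference 2.01), which leaves the high replicate 1 as 1 of 2 arrays. For Atp5c1 the difference of differences was -0.612 ± 0.207 (adjusted p = 0.315).

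Endothelial cells had lower signals than tumour cells for most members. Without treatment 11 of 90 members passed, all lower (limma; 18.3% of all genes passed, 10.2% lower and 8.18% higher). At 7 days 35 passed, 29 lower and 6 higher, where 40.0% of all genes passed (17.0% lower and 23% higher). At 21 days 30 passed, 27 lower and 3 higher, where 32.0% passed (16.3% lower and 15.7% higher). The median difference of the members was -0.288, -0.443 and -0.331, beside 0.029, 0.109 and 0.060 over all genes, so at 7 days the members lay lower still against the shift of all genes. Genes in the top 10% by level also had negative medians, of -0.224, -0.379 and -0.216. The difference was negative in all 3 conditions for 59 members (65.6%), beside 29.2% of all genes, and positive in all 3 for 9 (10%), beside 42.9%. In at least 1 condition 44 members (48.9%) passed as lower, beside 22.7% of all genes. Another quantile normalization reduced the counts to 7, 20 and 20. The untreated count was also sensitive to single arrays: it was 3, 4 and 5 without untreated tumour replicates 1, 2 and 3 and 3 without untreated endothelial replicate 2. The 7-day count was 23 without 7-day tumour replicate 4 and 19 without 7-day endothelial replicate 3; without endothelial replicate 1 it was 47, with 45 lower.

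**Figure D4:**
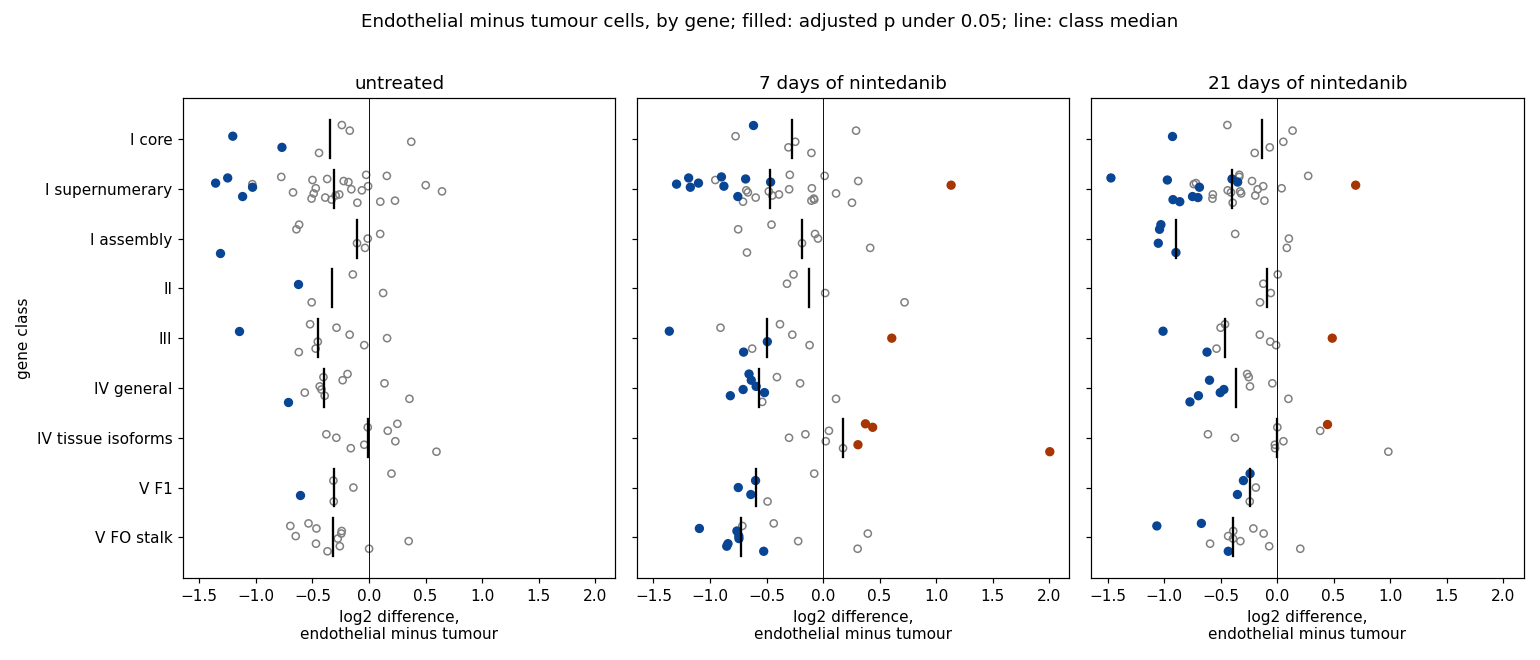
Log2 difference between endothelial and tumour cells (x axis) of each member, by class (y axis), in untreated, 7-day and 21-day samples. Filled points passed an adjusted p of 0.05, with blue for lower and brown for higher in endothelial cells, and black lines are class medians. Most points lie left of 0 in each panel, and the isoform genes of complex IV lie around it, with class medians of -0.011, 0.177 and 0.002.

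Passing as lower in all 3 conditions were 5 members (5.56%, beside 7.08% of all genes): Uqcr11, Ndufa12, Ndufb9, Ndufab1 and Atp5d. Uqcr11, a small peripheral subunit of complex III whose promoter is shown above, was at 10.72, 10.62 and 10.31 in untreated tumour arrays and at 9.22, 9.40 and 9.59 in untreated endothelial arrays. At 21 days the values were 10.45, 10.72, 10.77, 10.52 and 10.65 against 9.76, 9.31, 10.06, 10.02 and 8.92. The cell types did not overlap in these groups, nor at 7 days, where tumour arrays lay between 10.51 and 11.16 and endothelial arrays between 8.67 and 10.26. The difference was -1.15 ± 0.32 (adjusted p = 0.0136) untreated, -1.36 ± 0.30 (adjusted p = 0.00147) at 7 days and -1.01 ± 0.24 (adjusted p = 0.00357) at 21 days, that is 2.22-, 2.57- and 2.01-fold. Its second transcript cluster gave differences between -1.28 and -0.95. Without untreated tumour replicate 1 the untreated adjusted p was 0.0580.

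Ndufa12 was lower by 1.25 ± 0.38 (adjusted p = 0.0236), 1.19 ± 0.35 (adjusted p = 0.0121) and 1.47 ± 0.29 (adjusted p = 0.000637) on the log2 scale. Its untreated endothelial values, 9.43, 7.63 and 8.20, were spread widely, and its untreated call was lost without untreated endothelial replicate 2 (adjusted p = 0.159) or 3 (0.0765), or untreated tumour replicate 1 (0.0824) or 3 (0.0540). Ndufb9, a supernumerary subunit of the membrane arm, was more even. It was at 10.26, 10.17 and 10.04 in untreated tumour and 9.04, 8.98 and 9.09 in untreated endothelial arrays, a difference of -1.12 ± 0.26 (adjusted p = 0.00432). Ndufab1, the mitochondrial acyl carrier protein that also sits in complex I, differed by -1.03 ± 0.34 (adjusted p = 0.0365) untreated and -1.17 ± 0.31 (adjusted p = 0.00650) at 7 days. Its untreated adjusted p was 0.212 without untreated endothelial replicate 2, and 0.141 and 0.0907 without untreated tumour replicates 1 and 3. Atp5d, the delta subunit of the F1 head, differed by -0.612 ± 0.168 (adjusted p = 0.0135) untreated, or 0.0589 without untreated endothelial replicate 3 and 0.0530 without untreated tumour replicate 2.

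A further 6 members passed as lower without treatment, by 0.63 to 1.36. They were the complex I subunits Ndufa6 (-1.36 ± 0.42, adjusted p = 0.0271), Ndufs7 (-1.21 ± 0.40, adjusted p = 0.0429) and Ndufv1 (-0.770 ± 0.255, adjusted p = 0.0407), the assembly factor Ndufaf7 (-1.32 ± 0.44, adjusted p = 0.0406), Ndufa4 of complex IV (-0.715 ± 0.240, adjusted p = 0.0433) and Sdhb (-0.627 ± 0.209, adjusted p = 0.0411). Their adjusted p values were close to the threshold, and each of the 6 lost its call in at least 3 of the 23 fits that left out an array. For Sdhb, whose endothelial level was lowest without treatment, no call was made at 7 or 21 days.

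At 21 days the largest differences beside Ndufa12 and Uqcr11 were in Atp5g2, another gene for the complex V ring (-1.06 ± 0.24, adjusted p = 0.00190), and in assembly factors of complex I. Ndufaf1 differed by -1.03 ± 0.19 (adjusted p = 0.000380), Ndufaf2 by -1.04 ± 0.25 (adjusted p = 0.00372) and Ndufaf5, which modifies the core subunit Ndufs7, by -1.05 ± 0.37 (adjusted p = 0.0366, from 0.0585 to 0.0973 in 7 fits without an array). In all, 4 of 7 assembly factors passed as lower at 21 days, with a class median of -0.895, 0 of 7 at 7 days (median -0.186) and 1 of 7 without treatment (-0.106). Of all genes, 16.3%, 17.0% and 10.2% passed as lower in the same order. The change of the cell type difference between untreated and 21 days had a class median of -0.398, and no assembly factor passed the test of it.

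At 7 days the largest differences beside Uqcr11 and Ndufa12 included Ndufa7 (-1.30 ± 0.40, adjusted p = 0.0153) and Ndufa6 (-1.10 ± 0.39, adjusted p = 0.0311) of complex I. Without 7-day endothelial replicates 2 and 3 in turn, the adjusted p was 0.0639 and 0.0953 for Ndufa7 and 0.114 and 0.165 for Ndufa6. The Ndufa6 call was also lost without 7-day tumour replicates 2 (0.0590), 3 (0.0610) or 4 (0.0555), and after another quantile normalization (0.0775). Of the subunits fixed for description and not given so far, Ndufb8 of complex I lay between 8.63 and 9.24 in tumour and 8.02 and 9.41 in endothelial arrays. Cox5b of complex IV lay between 10.38 and 11.27 and between 9.75 and 10.68, Cox6a1 between 11.51 and 11.83 and between 11.27 and 11.89, and Uqcrfs1, the Rieske protein of complex III, between 7.59 and 8.35 and between 7.26 and 8.78. The cell types overlapped for all 4. Of these, Cox5b passed as lower at 7 days (-0.635 ± 0.198, adjusted p = 0.0163) and 21 days (-0.598 ± 0.164, adjusted p = 0.00874). The 7-day call was lost without endothelial replicates 2 (0.0624) or 3 (0.0908) and after another quantile normalization (0.0575).

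In complex V, 10 of 17 genes passed as lower at 7 days, 3 of the F1 head and 7 of the rest. At 7 days 17.0% of all genes and 32.2% of the members passed as lower. Atp5g3 differed by -1.09 ± 0.18 (adjusted p = 0.000106) and Atp5b, the catalytic beta subunit, by -0.597 ± 0.121 (adjusted p = 0.000848). In complex IV, 6 of 10 general subunits passed as lower at 7 days and 5 at 21 days. At 21 days 16.3% of all genes and 30% of the members passed as lower. Ndufa4 differed by -0.771 ± 0.186 (adjusted p = 0.00348) and Cox7a2 by -0.503 ± 0.169 (adjusted p = 0.0282) at 21 days; the latter was lost without 21-day endothelial replicate 1 (adjusted p = 0.0723) or 2 (0.0794), or 21-day tumour replicate 2 (0.0501) or 4 (0.0739). Cox4i1 differed by -0.655 ± 0.257 (adjusted p = 0.0490) at 7 days and lost this call in 19 of 23 fits without an array. Without 7-day endothelial replicate 1 the Cox4i1 difference was -0.993 and kept its call.

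Higher in endothelial cells were 6 members in at least 1 condition (6.67%, beside 28.7% of all genes). Ndufa8, a complex I subunit of the intermembrane space, was at 8.82, 8.80 and 8.74 in untreated, 10, 9.05 and 9.31 in 7-day and 9.48, 8.76, 8.67, 9.45 and 8.76 in 21-day endothelial arrays. In the 12 tumour arrays it lay between 7.96 and 8.57, below all 11 endothelial arrays. The difference was 1.13 ± 0.22 (adjusted p = 0.000541) at 7 days and 0.695 ± 0.180 (adjusted p = 0.00599) at 21 days. Uqcrc1, a core protein of complex III, differed by 0.608 ± 0.180 (adjusted p = 0.0122) at 7 days and 0.488 ± 0.149 (adjusted p = 0.0170) at 21 days. Its 7-day adjusted p was 0.0885 without endothelial replicate 1 and 0.0727 without endothelial replicate 3, and its 21-day adjusted p was 0.0887 without the 3 endothelial arrays high in macrophage markers. Its partner Uqcrc2 was not higher: the difference was negative in all 3 conditions and passed as lower in 1. The Uqcrc2 values lay between 7.66 and 9.35 in endothelial arrays and between 8.70 and 9.32 in tumour arrays.

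Cox4i2, known as the low-oxygen isoform of complex IV subunit 4, was at 4.50, 4.58 and 4.67 in untreated, 4.87, 4.52 and 4.77 in 7-day and 4.66, 4.82, 4.45, 4.88 and 4.69 in 21-day endothelial arrays. All but 21-day replicate 3 lay above the highest tumour array, which was at 4.46. The signal was low, with a mean level at the 43.6th percentile of all genes. Fibroblast and pericyte markers were also higher in endothelial arrays, and their part in the Cox4i2 difference was not tested. The difference was 0.251 ± 0.124 (adjusted p = 0.183) untreated, 0.375 ± 0.116 (adjusted p = 0.0156) at 7 days and 0.443 ± 0.096 (adjusted p = 0.00144) at 21 days. The 7-day call was lost without endothelial replicates 1 (adjusted p = 0.0831) or 3 (0.0529) or tumour replicate 4 (0.0559), and after array centring (difference 0.262, adjusted p = 0.0845) or another quantile normalization (0.213, adjusted p = 0.170), and with array weights (0.370, adjusted p = 0.0586). Cox6a2 (0.439 ± 0.139, adjusted p = 0.0181) and Cox8b (0.309 ± 0.104, adjusted p = 0.0242), both isoforms known from striated muscle, passed at 7 days only, at low signals below 6. After centring each array on its median neither passed (differences 0.326 and 0.197, adjusted p = 0.0861 and 0.158), and after another quantile normalization Cox8b was at 0.105 (adjusted p = 0.506). With array weights Cox6a2 did not pass (adjusted p = 0.0858). The Cox6a2 call was also lost without endothelial replicate 1 (0.108) or tumour replicate 4 (0.0669), and the Cox8b call without endothelial replicate 3 (0.113) or tumour replicates 2 (0.0568) or 4 (0.0714).

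Ndufa4l2 had the largest difference between the cell types at 7 days, 2.01 ± 0.63 (adjusted p = 0.0164), and this rested on endothelial replicate 1. Without that array it was 0.651 (adjusted p = 0.0935). The endothelial arrays lay between 3.94 and 8.42, all above the tumour maximum of 3.91. The mean level was at the 40.6th percentile of all genes, and the part of fibroblast and pericyte cells in the difference was not tested. The difference was 0.597 ± 0.669 (adjusted p = 0.603) untreated and 0.984 ± 0.518 (adjusted p = 0.152) at 21 days. With replicate 1 of the 7-day group left out of the fit, the 21-day difference of 0.984 had an adjusted p of 0.00131. Its general counterpart Ndufa4 was lower in endothelial cells at 21 days, as given above.

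Genes that act on the same machinery outside the naming rule were counted in the same way, beside 10.2%, 17.0% and 16.3% of all genes that passed as lower in untreated, 7-day and 21-day samples. Of 39 assembly genes, 4 (10.3%), 13 (33.3%) and 9 (23.1%) passed as lower and 0, 1 and 1 as higher, so the untreated share was close to that of all genes. Of 48 large mitochondrial ribosomal genes 12 (25%), 14 (29.2%) and 15 (31.2%) passed as lower and none as higher. Timmdc1, which anchors complex I assembly in the inner membrane, differed by -1.15 ± 0.19 (adjusted p = 0.000143) untreated. Of 19 regulators of mitochondrial biogenesis, 4 (21.1%), 5 (26.3%) and 6 (31.6%) passed as lower, among them Tfam, which packages mitochondrial DNA (-1.38 ± 0.26, adjusted p = 0.000441, at 21 days), and 0, 2 and 1 as higher. Of 14 genes for cytochrome c and coenzyme Q, 0, 3 (21.4%) and 3 (21.4%) passed as lower and 0, 1 and 1 as higher; Coq8a, a kinase-like protein of coenzyme Q synthesis, was higher by 0.426 (adjusted p = 0.0106) at 7 days. None of these 4 lists had a gene that passed in any treatment comparison.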

How the data were processed

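Total RNA of FACS-sorted tumour and endothelial cells was hybridised to Affymetrix arrays. The deposited values are log2 expression made by the authors with RMA in oligo, per the submitters' processing notes; their settings and genome build are not given in any source used here. Of 35556 transcript clusters, the 21789 that name a single gene were used, and for 999 genes with several the cluster with the highest mean was kept, leaving 19938 genes. limma 3.58.1 in R 4.3.3 (lmFit, eBayes) was fitted over the 12 tumour arrays, the 11 endothelial arrays or all 23 for comparisons across cell types, with Benjamini-Hochberg adjustment over all genes at 0.05. The tests were checked on simulated data with 200 changed genes. The labels call the arrays biological replicates; whether they came from separate mice is not stated, so p-values measure the spread between these samples. The labels also do not say whether tumour and endothelial arrays came from the same tumours. The tests across cell types treat all arrays as independent. The number of arrays limits the precision.

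The members, gene lists and alternatives were chosen with earlier results of these data known, and which panel differences to print was decided after values were seen. The promoter window was shortened, and 2 of 5 motifs were given looser forms, after a first search. The text names every member that passed (the 6 with the largest change where over 12 passed in a direction), the 3 with the smallest p in each direction of a treatment comparison, a panel of subunits and isoforms, and up to 3 genes of each further list. Alternatives were a fit over all arrays, a filter at the 30th percentile of mean level, a variance trend, array weights, the mean of a gene's clusters, another quantile normalization, median centring, a replicate block and leaving out each array. Leaving out endothelial arrays with a macrophage marker mean over 7, and the macrophage or isolation marker mean as a covariate, were added after seeing the data.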

Additional observations from a re-analysis of the deposited data

Results flagged for a closer look

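Among 48 named members, 144 groups of 4 or 5 arrays were examined for a single array far from the rest, and 6 held one; chance alone gives about 1 in 20 groups. In tumour cells at 7 days, Atp5a1, the alpha subunit of the ATP synthase head, was lowest in replicate 2 (10.25, the next at 10.56), and Sdhb was highest in the same replicate (9.93, the next at 9.17). In tumour cells at 21 days, Ndufa6 was highest (9.55, the next at 9.15) and Ndufb3 lowest (6.65, the next at 6.91) in replicate 1, and Ndufa4 was highest in replicate 4 (11.65, the next at 11.35). In endothelial cells at 21 days, Cox7a2l was lowest in replicate 5 (9.26, the next at 9.77). Groups of 3 arrays, among them the 7-day endothelial group with its high replicate 1, are too small for this examination.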

How the results depend on the processing

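The number of members that passed between 21 and 7 days in tumour cells, 1 in the report, was 0 in a fit over all 23 arrays, with a trend in the prior variance, with a replicate block and with the isolation or macrophage marker mean as a covariate, and 2 with array weights; leaving out an array gave 0 to 2. For tumour cells at 7 days the count was 1 after another quantile normalization and 0 to 1 without an array. The fit over all 23 arrays pools the spread of both cell types. It gave 1 member for endothelial cells at 7 days and 1 at 21 against 7 days. Between cell types without treatment the count was 7 after another quantile normalization, 17 after median centring and 3 to 16 without an array; at 7 days it was 20 after another quantile normalization and 19 to 47 without an array. The count for the difference of 7-day effects was 0 to 1 without an array. The cause of these changes was not tested. The median member difference in endothelial cells was -0.665 at 7 days and -0.557 at 21 days with the isolation marker mean as a covariate, which also gave -0.674 for Sdhd at 7 days; that mean separates treated from untreated endothelial arrays completely. For tumour cells at 21 days the median was 0.018 to 0.155 without an array. Leaving out 7-day endothelial replicate 1 turned the 7-day endothelial differences of Ndufa4l2 (range -0.071 to 2.08 without an array) and Sdhd (-0.126 to 1.43). Same-numbered samples did not deviate together: correlations lay between -0.102 and 0.082 for 10 tumour pairs and between -0.149 and 0.112 for 9 endothelial pairs. Over all 49 same-numbered pairs, which include pairs across cell types, correlations lay between -0.149 and 0.112. With a replicate block the untreated, 7-day and 21-day counts between cell types were 8, 28 and 27. Of values refitted for 85 differences of single genes, 745 kept their direction and side of the threshold under the alternatives, 32 lost the call, 5 gained one and 1 turned; without an array these numbers were 1354, 110, 5 and 2. Differences without a call in the main fit had none to lose. Leaving out an array of an uninvolved group left the difference itself unchanged. The kept counts are therefore not a measure of stability. For 6 of 17 members with several clusters, the clusters differed in sign at 7 days in tumour cells, and for 3 at 21 days.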
